A study of Mus musculus with 4 samples.

Results

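Cells import amino acids, glucose and lactate through membrane proteins of the solute carrier (Slc) families, and the ribosome footprints on 10 genes that encode such carriers are described here in mouse embryonic stem cells. The genes are Slc7a5, Slc3a2, Slc7a3, Slc7a11, Slc1a5, Slc38a1, Slc38a2, Slc2a1, Slc2a3 and Slc16a1. They were chosen by name, and all 10 were found, each in 1 row, among the 25170 genes of the deposited table. The cells were of the E14 line, with a wild-type genotype. The first group was kept in 1 µM PD for 3 passages and the second in the solvent DMSO for the same number of passages, with 2 libraries each. The compound is called PD in the labels, and the study's design text names the kinase Mek as its subject. Both groups grew in medium with 15% fetal bovine serum, 1% nonessential amino acids, 1% L-glutamine, 1% β-mercaptoethanol and 1000 units/ml leukemia inhibitory factor, on dishes coated with 0.2% gelatin. Ribosome profiling sequences the pieces of mRNA that ribosomes shield from a nuclease, so a gene's signal depends on its mRNA level and on ribosome density together. Matched RNA levels were not analysed here. In a bulk culture, fewer cells of a type and less RNA per cell cannot be told apart.

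The carriers work in groups. Slc7a5 (LAT1) exchanges large neutral amino acids such as leucine across the membrane, and it reaches the cell surface only when bound to Slc3a2 (CD98 or 4F2hc), a heavy chain that carries other light chains too. One of these is Slc7a11 (xCT), which imports cystine, the oxidized dimer of cysteine, in exchange for glutamate, and cystine supplies glutathione synthesis. Slc7a3 (CAT3) imports the cationic amino acids arginine and lysine. Slc1a5 (ASCT2), Slc38a1 (SNAT1) and Slc38a2 (SNAT2) carry small neutral amino acids and glutamine. Slc2a1 (GLUT1) and Slc2a3 (GLUT3) let glucose into the cell, and Slc16a1 (MCT1) moves lactate and other monocarboxylates together with a proton. Embryonic stem cells divide fast and are known for a high rate of glycolysis.

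The deposited values are FPKM, fragments scaled to transcript length and to the number mapped in the library, each with 2 confidence bounds. FPKM are scaled to length, and the levels of different genes are set side by side here on that scale. The sources used here do not say whether that length was the whole transcript's or its coding part's. Ratios and orders between genes therefore hold on this scale only. Depth was lower in PD. With DMSO replicate 1 taken as 1, the depth read from the values was 0.464 in PD replicate 1, 0.201 in PD replicate 2 and 1.42 in DMSO replicate 2, so depth and treatment cannot be told apart here. Of 10 embryonic stem cell markers, all were at or above 12.02 FPKM in every library. Their summed level was 2292 to 3909 FPKM in PD libraries and 2297 to 2332 FPKM in DMSO libraries. Most of it came from Dppa5a, at 1421 and 3203 FPKM in the PD libraries and 1414 and 1633 FPKM in the DMSO libraries. The log2 difference was above 0 for 6 of these markers and below 0 for 4. Of 10 fibroblast markers, Postn and Lum were listed at 0 in all 4 libraries, and the summed level was 83.9 to 87.6 FPKM in PD libraries and 91.5 to 106 FPKM in DMSO libraries, nearly all from Fn1, whereas the collagen gene Col1a1 stayed at or below 1.12 FPKM. Summed markers of 3 other cell types were 1.018 to 1.25 FPKM in PD libraries and 0.528 to 0.549 FPKM in DMSO libraries for extraembryonic endoderm, and 4.86 to 11.4 FPKM against 5.66 to 11.5 FPKM for trophoblast. For neural genes they were 323 to 333 FPKM in PD libraries and 154 to 193 FPKM in DMSO libraries, mostly from Stmn2 (log2 difference 1.10, limma adjusted p = 0.717). The part of these markers in the results was not tested.

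Footprints were plentiful on 9 of the carriers, and few fell on Slc7a11. The 6 most abundant, Slc2a3, Slc7a3, Slc2a1, Slc38a2, Slc3a2 and Slc7a5, lay between the 94.3 and 98.8 percentiles of the 8897 protein-coding genes tested, over all 4 libraries. Slc16a1 lay between the 88.6 and 91.0 percentiles, Slc1a5 between 75.2 and 86.5, and Slc38a1 between 69.1 and 74.1. Slc7a11 averaged under 1 FPKM and was not one of these tested genes, a set that leaves out genes of such low level. Placed among them it lay between the 1.94 and 4.09 percentiles, but the filter alone puts such a gene near the bottom. In the plot of levels by library the carriers appear as 6 genes at or above 92.3 FPKM in every library, a step down over 3 genes, and 1 gene below 1 FPKM.

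**Figure D1:**
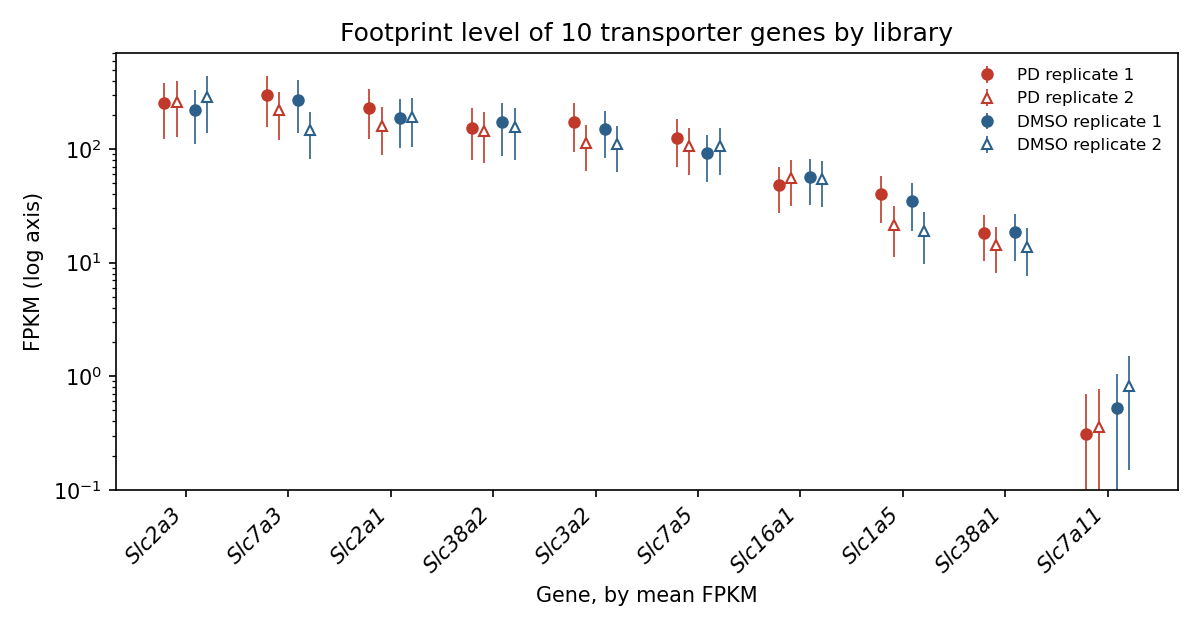
FPKM (log axis) of the 10 transporter genes in 2 PD libraries (red) and 2 DMSO libraries (blue), ordered by mean level. Vertical lines are the deposited confidence bounds, and those reaching below 0.1 FPKM are ended by the axis. Slc2a3 averages 256 FPKM over the 4 libraries and Slc7a11 0.505 FPKM.

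Promoter windows from RefSeq (GRCm38.p6) were matched by symbol for 5 of the 10 genes: Slc3a2, Slc7a11, Slc38a2, Slc2a1 and Slc16a1. Each window lies before one annotated start and not always the outermost: the RefSeq model of Slc7a11 begins 55474 bases further upstream, and the Slc3a2 window lies inside the gene's locus. The 250 bases before that start are shown for the least abundant gene and for the most abundant gene with a window, because their footprint levels lie furthest apart. Capitals mark matches to the motifs described in the next paragraph.
Slc7a11 (chr3:50443614-50443863, minus strand): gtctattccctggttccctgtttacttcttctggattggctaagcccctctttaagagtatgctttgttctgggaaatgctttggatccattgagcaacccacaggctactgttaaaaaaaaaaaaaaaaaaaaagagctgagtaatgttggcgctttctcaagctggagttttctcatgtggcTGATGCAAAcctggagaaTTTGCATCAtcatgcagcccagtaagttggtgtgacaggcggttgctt
Slc2a1 (chr4:119108495-119108744, plus strand): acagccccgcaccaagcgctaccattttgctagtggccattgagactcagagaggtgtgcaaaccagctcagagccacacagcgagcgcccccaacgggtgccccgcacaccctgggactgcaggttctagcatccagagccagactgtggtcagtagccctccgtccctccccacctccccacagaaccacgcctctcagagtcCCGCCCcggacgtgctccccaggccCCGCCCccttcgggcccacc

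The search for 5 motifs covered both strands. TGATGNAAN is the core of the amino acid response element, to which the transcription factor Atf4 binds when amino acids are scarce. The Slc7a11 window held 2 matches to it, TGATGCAAA starting at -66 and, on the other strand, TTTGCATCA starting at -48, counted from the base before the start as -1. The other 4 windows held none, and 3.44% of all 32851 RefSeq windows held at least 1. The GC box GGGCGG was found in 4 of the 5 windows (2 matches for Slc2a1, both on the other strand) and not in that of Slc7a11, against 32.7% of all windows. TGACNNNGC, the core of the antioxidant response element, matched in Slc38a2 and Slc16a1 (10.2% of all windows), the E-box CACGTG in Slc16a1, where it overlaps the antioxidant match (6.02%), and the TATA box TATAAA in none (12.4%). GC content was 43.2% for the Slc7a11 window, 53.6% for Slc3a2, 66.4% for Slc2a1, 72.0% for Slc38a2 and 76.4% for Slc16a1, with a median of 52.4% over all windows. These matches describe the sequence only, and footprints do not measure what binds there.

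No carrier passed the test of PD against DMSO. The 9 that averaged 1 FPKM or more were tested in a limma fit of log2(FPKM + 1) over all 9741 genes that met this filter, and 0 of 9 had an adjusted p under 0.05 or an unadjusted p under 0.05. In the same fit 0.0308% of all genes passed as higher and 0.226% as lower in PD, and 5.76% had an unadjusted p under 0.05. The log2 differences of the 9 carriers ran from -0.13 for Slc38a2 to 0.36 for Slc7a3, 7 above 0 and 2 below, with adjusted p-values of 0.890 to 0.997. Their median was 0.02, beside -0.02 over all genes tested. The median size of the difference, without its sign, was 0.11 for the carriers. It was 0.26 for the 5026 protein-coding genes that averaged 5 FPKM or more, of which 37.2% had a larger difference than any carrier. Those genes were not matched to the carriers in level. Every tested carrier lay above 6.33 FPKM, the median of the tested protein-coding genes, and the part of level in this contrast was not tested. With 2 libraries a group, a two-sided exact permutation test of a single gene cannot give a p below 0.333. A p that misses the threshold does not show equal levels: the 95% intervals reached from a ratio of 0.474 at the lowest to 2.76 at the highest.

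**Figure D2:**
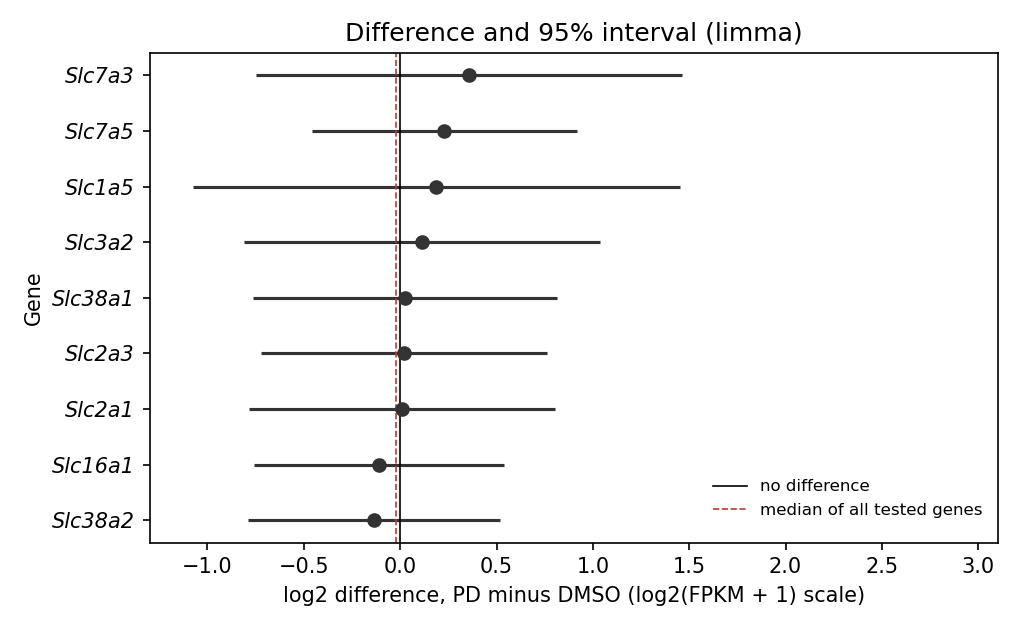
log2 difference, PD minus DMSO, of the 9 tested transporter genes with its 95% interval from limma. The dashed line is the median of all genes tested, -0.02. Every interval includes 0, and the widest are those of Slc1a5 and Slc7a3.

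**Figure D3:**
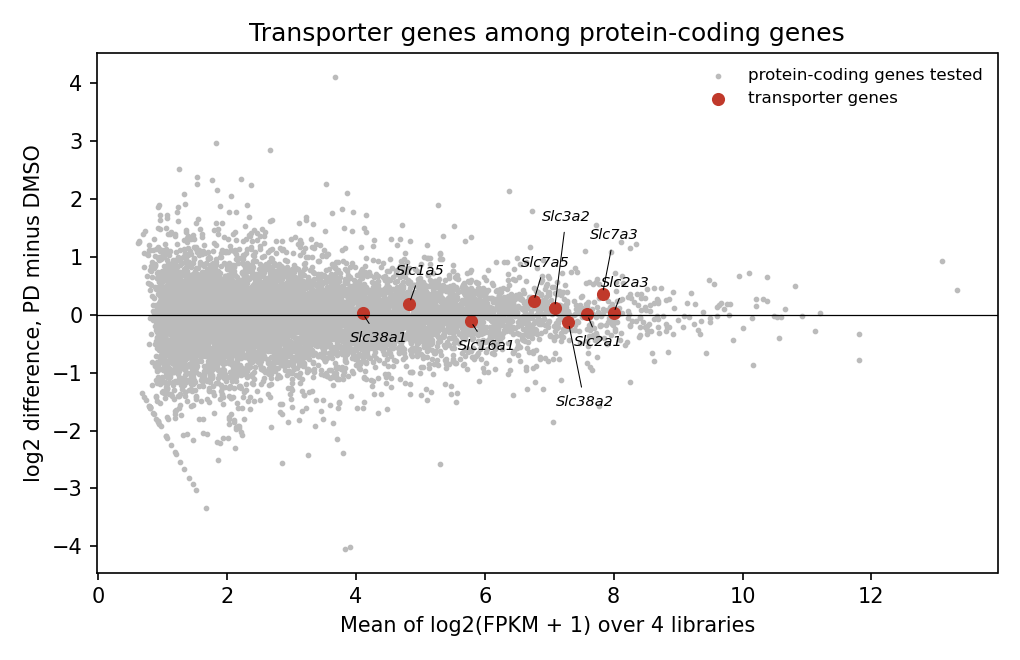
Mean log2(FPKM + 1) over the 4 libraries (horizontal) and log2 difference, PD minus DMSO (vertical), of the protein-coding genes tested, with the 9 tested transporter genes in red. The red points lie between -0.13 and 0.36 on the vertical axis.

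Slc7a5 was one of 2 tested carriers whose groups did not overlap. Of all genes tested, 35.8% had no overlap in one direction or the other. Slc7a5 had 126 and 107 FPKM in the PD libraries, against 92.3 and 106 FPKM in the DMSO libraries. The lower PD library and the higher DMSO library differed by less than 1 FPKM, so the groups barely separated. The means were 116 ± 13.5 FPKM in PD and 99.1 ± 9.74 FPKM in DMSO (SD, n = 2 each). The log2 difference, 0.23, had an SE of 0.26 (limma adjusted p = 0.890) and a 95% interval of -0.46 to 0.92, which corresponds to ratios of 0.728 to 1.89. Both PD libraries lay above both DMSO libraries in 17.5% of all genes tested. Slc7a5 lies on chromosome 8 (mm10, 121881146 to 121907686). Of the 10 loci, those of Slc38a1 and Slc2a1 overlap RefSeq long noncoding genes (Gm32457, and Gm52706 and Gm12867), and without a stated strand their reads cannot be told apart.

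Its heavy chain Slc3a2 (chromosome 19, 8706882 to 8723369) had 173 and 113 FPKM in the PD libraries and 150 and 112 FPKM in the DMSO libraries. The groups overlapped, and within each group replicate 1 was the higher library, by 1.53 times in PD and 1.34 times in DMSO. The means were 143 ± 42.6 FPKM in PD and 131 ± 27.1 FPKM in DMSO (SD, n = 2 each), and the log2 difference of 0.11 had an SE of 0.34 (limma adjusted p = 0.966). A ratio of 2 genes within a library does not depend on how that library was scaled. Slc3a2 stood at 1.38 and 1.06 times Slc7a5 in the PD libraries and at 1.62 and 1.05 times in the DMSO libraries. In FPKM the heavy chain was thus the higher of the pair in all 4 libraries, and the groups overlapped.

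Slc3a2 also carries Slc7a6, Slc7a7, Slc7a8, Slc7a10 and Slc7a11. The summed FPKM of these 6 light chains, Slc7a5 included, was 0.875 and 1.17 times that of Slc3a2 in the PD libraries, against 0.877 and 1.20 times in the DMSO libraries. Replicate 1 of PD thus lay next to replicate 1 of DMSO, and replicate 2 next to replicate 2. Slc7a5 made up 83.0% and 81.1% of the light chain sum in the PD libraries and 70.2% and 78.9% in the DMSO libraries. Slc7a7, a light chain that exports cationic amino acids in exchange for neutral ones, was next, at 16.5 and 13.4 FPKM in the PD libraries and 27.7 and 16.9 FPKM in the DMSO libraries. Slc7a10 was listed at 0 in all 4 libraries.

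**Figure D4:**
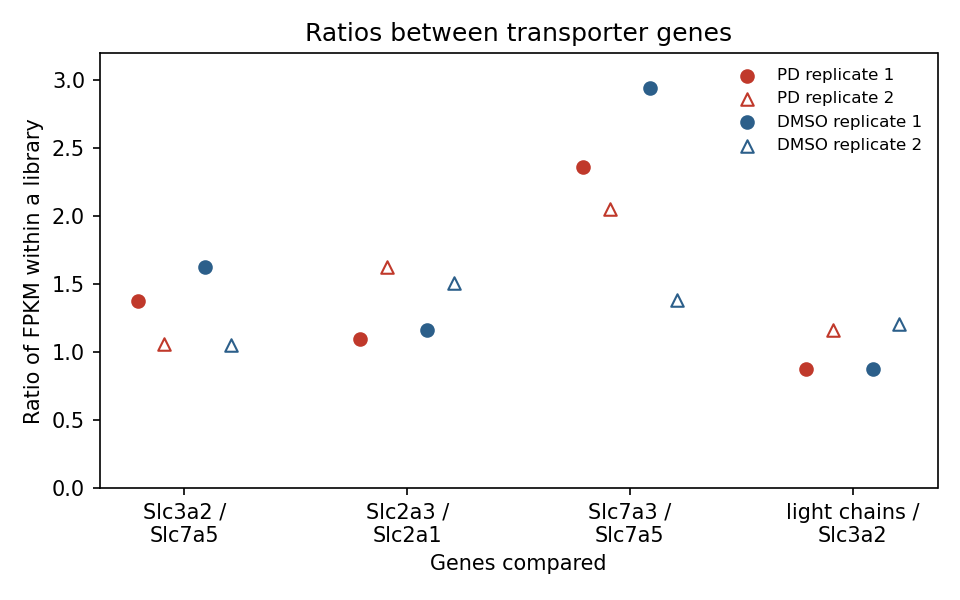
Ratio of FPKM within each library for Slc3a2 over Slc7a5, Slc2a3 over Slc2a1, Slc7a3 over Slc7a5 and the sum of 6 light chains over Slc3a2, with PD libraries in red and DMSO libraries in blue. PD and DMSO points overlap for Slc3a2 over Slc7a5, Slc2a3 over Slc2a1 and the light chains, and the PD points for Slc7a3 over Slc7a5 lie between the DMSO points.

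Many genes had profiles over the libraries closer to one of the 2 partners than the other partner's. By Euclidean distance between centred log2(FPKM + 1) values over the 4 libraries, Slc3a2 ranked 1760 of 5025 protein-coding genes by closeness to Slc7a5, at a distance of 0.526, where the median distance was 0.643. Slc7a5 ranked 1238 of 5025 by closeness to Slc3a2. The nearest genes to Slc7a5 were Wdr89, Lmna and Ube2r2 (0.0426 to 0.0555), and Gpaa1 and Ooep were among the nearest to Slc3a2 (0.0489 and 0.0501). With 4 libraries such closeness is a description of these values only.

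Slc7a11, the cystine carrier (chromosome 3, 50364936 to 50443613), was at 0.310 and 0.357 FPKM in the PD libraries, against 0.527 and 0.828 FPKM in the DMSO libraries. Both PD libraries were below both DMSO libraries. Of all genes tested 18.3% showed this, a share that does not cover genes of such low level. With a mean under 1 FPKM Slc7a11 was not tested. The smallest whole numbers of reads that fit its values were 6 and 3 in the PD libraries and 22 and 49 in the DMSO libraries, though any multiple of these would fit too. Taken as these reads, exact Poisson 95% intervals were 0.114 to 0.674 FPKM for PD replicate 1 and 0.0735 to 1.04 FPKM for PD replicate 2, against 0.330 to 0.797 FPKM for DMSO replicate 1 and 0.613 to 1.09 FPKM for DMSO replicate 2. Each PD interval overlaps each DMSO interval, and they leave out all error but that of counting. Without the filter on low values the log2 difference was -0.33 (limma adjusted p = 0.813), on a scale that understates changes at this level. Slc7a11 made up 0.204% and 0.271% of the light chain sum in the PD libraries and 0.401% and 0.616% in the DMSO libraries. Slc38a1, the next carrier upwards, had 32.2 times its mean level. Atf4, singled out after its values were seen because of the motif in the Slc7a11 window, had 65.5 and 61.2 FPKM in the PD libraries and 69.4 and 77.4 FPKM in the DMSO libraries (log2 difference -0.21, limma adjusted p = 0.891).

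Slc7a3, the arginine and lysine carrier on chromosome X (101079210 to 101085405), had the largest log2 difference of the tested carriers. It had 298 and 219.7 FPKM in the PD libraries and 271 and 147 FPKM in the DMSO libraries. The DMSO libraries differed from each other by 1.85 times, more than the ratio of group means, 1.24, and they enclosed PD replicate 2. The means were 259 ± 55.3 FPKM in PD and 209 ± 88.3 FPKM in DMSO (SD, n = 2 each), and the log2 difference, 0.36, had an SE of 0.41 (limma adjusted p = 0.891) and a 95% interval of -0.75 to 1.46. Without DMSO replicate 2 it was -0.085, and without DMSO replicate 1 it was 0.80. Slc7a3 stood at 2.36 and 2.05 times Slc7a5 in the PD libraries and at 2.94 and 1.38 times in the DMSO libraries.

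The glutamine and small neutral amino acid carriers overlapped between the groups except for Slc38a2. Slc1a5 (chromosome 7, 16781346 to 16798274) had 39.9 and 21.4 FPKM in the PD libraries and 34.6 and 18.9 FPKM in the DMSO libraries. Replicate 1 was 1.86 times replicate 2 in PD and 1.83 times in DMSO, while the group means differed by 1.15 times. Its log2 difference of 0.19 had the largest SE of the carriers, 0.47 (limma adjusted p = 0.957). The smallest whole reads that fit were 219 and 51 in the PD libraries and 409 and 316 in the DMSO libraries, and the true reads may again be a multiple. Taken as these reads, exact Poisson 95% intervals of the 2 libraries of a group did not overlap, at 34.8 to 45.6 and 15.9 to 28.1 FPKM in PD and at 31.3 to 38.1 and 16.8 to 21.05 FPKM in DMSO.

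Slc38a2 (chromosome 15, 96687392 to 96699728) had 154 and 144 FPKM in the PD libraries, against 172 and 156 FPKM in the DMSO libraries. Both PD libraries lay below both DMSO libraries, by little, as in 18.3% of all genes tested. The means were 149 ± 7.13 FPKM in PD and 164 ± 11.3 FPKM in DMSO (SD, n = 2 each), and the log2 difference of -0.13 had an SE of 0.24 (limma adjusted p = 0.938). Its range over the 4 libraries, 1.19 times from lowest to highest, and that of Slc16a1, 1.18 times, were the narrowest of the 10. The related Slc38a1 (chromosome 15, 96571418 to 96642913) had 18.4 and 14.4 FPKM in the PD libraries and 18.5 and 13.8 FPKM in the DMSO libraries, a log2 difference of 0.02 (SE 0.29, limma adjusted p = 0.995). The genes lie 44.5 kb apart. Slc38a2 was the higher in every library, at 8.38 and 10.02 times Slc38a1 in the PD libraries and 9.29 and 11.3 times in the DMSO libraries.

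Both glucose carriers stood among the most abundant of the 10 and showed almost no difference in their means. Slc2a3 (chromosome 6, 122727809 to 122742745) had 252 and 261 FPKM in the PD libraries, inside the 220.4 and 289.7 FPKM of the DMSO libraries. Slc2a1 (chromosome 4, 119108745 to 119137329) had 229 and 160.2 FPKM in the PD libraries, on either side of the 189 and 192 FPKM of the DMSO libraries. Their log2 differences were 0.02 (SE 0.28) and 0.01 (SE 0.30), with limma adjusted p-values of 0.995 and 0.997 and 95% intervals of -0.72 to 0.76 and -0.78 to 0.80. Because FPKM are scaled to length, a share of summed FPKM is not a share of reads. Genes of small RNAs held 99.66% and 99.71% of the summed FPKM in the PD libraries and 99.72% and 99.55% in the DMSO libraries. When values were rescaled to leave them out, both signs turned (-0.0020 and -0.014). Slc2a3 was above Slc2a1 in all 4 libraries, by 1.10 and 1.63 times in the PD libraries and by 1.17 and 1.51 times in the DMSO libraries.

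Slc2a3 lies 13.2 kb from Nanog, a factor of the naive pluripotent state and its nearest tested protein-coding neighbour on chromosome 6. Nanog, singled out for this position after its values were seen, had 136 and 116 FPKM in the PD libraries and 70.0 and 57.1 FPKM in the DMSO libraries, with a log2 difference of 0.98 (95% interval 0.27 to 1.69, limma adjusted p = 0.803), which did not pass either. The interval of Slc2a3, up to 0.76, overlaps that of Nanog, and the difference between them was not tested. Dppa3, the next nearest tested protein-coding gene at 97.5 kb, went the other way. It had 0 and 0 FPKM in the PD libraries and 3.50 and 2.23 FPKM in the DMSO libraries (log2 difference -1.93, limma adjusted p = 0.689).

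Slc16a1, the monocarboxylate carrier (chromosome 3, 104638664 to 104658462), had 48.3 and 55.6 FPKM in the PD libraries and 57.2 and 54.9 FPKM in the DMSO libraries. The groups overlapped, with a log2 difference of -0.11, an SE of 0.24 and a 95% interval of -0.76 to 0.54 (limma adjusted p = 0.949).

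The order of the carriers by level was much the same in both groups. By group mean, Slc7a3 was first and Slc2a3 second in PD, Slc2a3 first and Slc7a3 second in DMSO, and the ranks from 3 to 10 were equal. Neighbours at the top of the order did not differ beyond the spread over libraries: Slc2a3 was above Slc7a3 in 2 of 4 libraries, Slc7a3 above Slc2a1 in 3 and Slc38a2 above Slc3a2 in 3. Slc2a1 was above Slc38a2 and Slc3a2 above Slc7a5 in 4 of 4 libraries, although their ranges overlapped. From Slc7a5 downwards the ranges of neighbours no longer overlapped, with steps of 1.997 times to Slc16a1, 1.88 times to Slc1a5 and 1.76 times to Slc38a1 before the drop to Slc7a11. The 10 carriers summed to 1340 and 1097 FPKM in the PD libraries and 1206 and 1090 FPKM in the DMSO libraries. The 7 genes of amino acid transport held 60.5% and 56.5% of that sum in the PD libraries and 61.3% and 50.8% in the DMSO libraries.

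The deposited confidence bounds did not separate the groups either. For each gene there are 4 pairs of a PD and a DMSO library, and the bounds overlapped in 40 of 40 such pairs over the 10 carriers. Over all genes tested, 0.0821% had both PD intervals apart from both DMSO intervals. For the 9 tested carriers the distance from the value to its upper bound was 43.3% to 52.7% of the value in every library, although depth differed between libraries. For Slc1a5, with 51 to 409 fitted reads, it was 44.2% to 48.4%. For Slc7a11 it was 81.9% to 125%.

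In 5 of the 10 (Slc3a2, Slc7a3, Slc1a5, Slc38a1 and Slc38a2) replicate 1 lay above replicate 2 in both groups, as it did in 29.4% of all genes tested. The labels do not say that libraries of one number share a culture or a day, nor that the libraries of a group come from separate cultures, so the spread behind the p-values may be technical.

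Other genes of the same transport systems were read from lists chosen for their known roles. Of 32 further genes listed under amino acid carriers of the plasma membrane, 14 were tested, and 0 passed in either direction. In 5 both PD libraries lay above both DMSO libraries, in 3 both lay below, and 6 overlapped, where 35.8% of all genes tested showed no overlap. Their median log2 difference was 0.19, and it was -0.02 without DMSO replicate 2. After that rescaling it was -0.13, but over the 17 genes of the list that then met the filter. Slc7a1, the common cationic amino acid carrier and a relative of Slc7a3, had 40.7 and 27.99 FPKM in the PD libraries and 22.6 and 16.1 FPKM in the DMSO libraries (log2 difference 0.79, limma adjusted p = 0.837). Slc43a1, a carrier of large neutral amino acids that needs no heavy chain, had 4.17 and 7.68 FPKM in PD and 2.51 and 3.32 FPKM in DMSO. At the other end, the glycine carrier Slc6a9 had a log2 difference of -0.62 with overlapping groups, and Slc7a7 one of -0.52. Slc7a1 stood below Slc7a3 in every library.

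Carriers of lysosomes and other inner membranes were lower in level. Of 14 listed, 8 were tested and 0 passed; one listed gene, Slc29a3, is known as a nucleoside carrier. Their median was 0.36, and it was -0.04 without DMSO replicate 2. In the rescaled table, where 10 genes of the list met the filter, the median was 0.19. Ctns, the lysosomal cystine exporter, had 5.80 and 4.90 FPKM in the PD libraries and 2.96 and 2.41 FPKM in the DMSO libraries (log2 difference 0.79, limma adjusted p = 0.837), with no overlap. Slc38a10 had the only difference below 0, at -0.10.

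Among 16 further genes listed as hexose carriers only Slc2a8 and Slc50a1 reached 1 FPKM on average. Neither passed: Slc2a8, an intracellular glucose carrier, had a log2 difference of -0.01, and Slc50a1, a sugar carrier of the SWEET family, had 3.97 and 3.92 FPKM in the PD libraries against 6.32 and 5.02 FPKM in the DMSO libraries. Slc2a1 and Slc2a3 therefore held nearly all of the summed FPKM of the hexose carriers listed. The 16 others summed to 11.7 and 9.65 FPKM in the PD libraries and 11.9 and 11.2 FPKM in the DMSO libraries. For the pair the sums were 481 and 421 FPKM in PD and 409 and 482 FPKM in DMSO.

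Of 16 other monocarboxylate carriers and chaperones, 5 were tested and 0 passed. Slc16a3 (MCT4), a lactate exporter of glycolytic cells, had 59.9 and 59.0 FPKM in the PD libraries and 37.5 and 45.8 FPKM in the DMSO libraries, without overlap (log2 difference 0.51, 95% interval -0.16 to 1.18, limma adjusted p = 0.837). Emb, a chaperone that brings monocarboxylate carriers to the surface, had 79.7 and 72.2 FPKM in the PD libraries and 365 and 93.4 FPKM in the DMSO libraries. DMSO replicate 1 stood apart from the other 3 libraries there, and the log2 difference of -1.28 had an SE of 0.70 (limma adjusted p = 0.837). The median of the 5 was 0.05, but -0.26 without DMSO replicate 2. In the rescaled table, where 7 genes of the list met the filter, the median was -0.06.

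The list for amino acid sensing to the growth kinase complex mTORC1 also holds the kinase Mtor itself, with Rheb, Tsc1 and Tsc2. The median of the list was -0.07 over 34 tested members. It was -0.0019 with quantile normalization and -0.16 without PD replicate 1. Of these genes 0 passed, and 4 lay higher and 7 lower in both PD libraries, where 17.5% and 18.3% of all genes tested did so. Itfg2, a subunit of the KICSTOR complex, had 7.55 and 9.72 FPKM in the PD libraries and 4.12 and 4.73 FPKM in the DMSO libraries (limma adjusted p = 0.825). Rragc, one of the Rag GTPases, had 2.52 and 0.892 FPKM in the PD libraries and 2.96 and 4.82 FPKM in the DMSO libraries.

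Regulators of the carriers' transcription or uptake from the membrane had a median of -0.07 over 17 members, which was 0.02 with quantile normalization and -0.22 without DMSO replicate 1, and 0 passed. Eif2ak4, the kinase GCN2 that senses uncharged tRNA, had a log2 difference of 0.34, and Atf5, a relative of Atf4, had one of -2.05 from 0.607 and 0 FPKM in PD and 6.33 and 2.78 FPKM in DMSO (limma adjusted p = 0.766).

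Genes that make and use glutathione had a median of 0.06 over 8 tested members (-0.08 without DMSO replicate 2), of which 0 passed. In both PD libraries 3 of the 8 lay higher and 0 lower, beside 17.5% and 18.3% of all genes tested. Gss, glutathione synthetase, had 41.5 and 30.3 FPKM in the PD libraries and 14.2 and 13.4 FPKM in the DMSO libraries (log2 difference 1.30, limma adjusted p = 0.717). Gclc, the catalytic subunit of the enzyme that makes the first bond of glutathione, had 1.59 and 4.32 FPKM in the PD libraries and 3.01 and 8.13 FPKM in the DMSO libraries. Over these 7 further lists 0 genes passed in limma. At an unadjusted p under 0.05 there were 1 of 8 intracellular carriers, 1 of 34 genes of the mTORC1 list, 1 of 17 regulators and 2 of 8 glutathione genes. There were none in the other 3 lists, beside 5.76% of all genes tested.

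**Figure D5:**
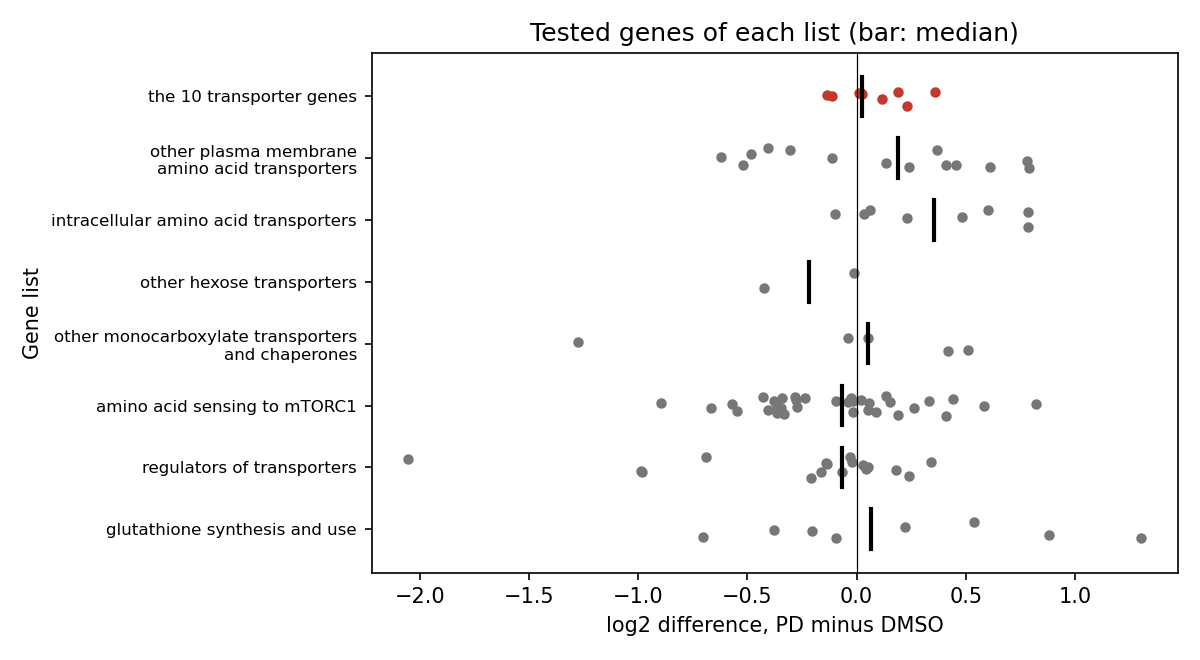
log2 difference, PD minus DMSO, of each tested gene in the 10 transporter genes (red) and in 7 further lists (grey), with the median of each list as a bar. The transporter genes span -0.13 to 0.36, and Atf5, at -2.05 among the regulators, lies furthest out.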

How the data were processed

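Ribosome-protected RNA of 4 libraries was analysed. The authors deposited FPKM with confidence bounds in a table of Cufflinks form, per the file headers. FastQC, Trimmomatic, Bowtie2, STAR, Cufflinks and the build mm10 are named in the submitters' processing notes, without versions. Starts are printed with 1 added. 1 gene with a failed status was left out. Gene types came from RefSeq (GRCm38.p6), which matched 25083 symbols.

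Testing by limma (version 3.58.1, R 4.3.3) used log2(FPKM + 1) of the 9741 genes that averaged 1 FPKM or more, with group as the only term, 2 residual degrees of freedom, eBayes with a variance trend, Benjamini-Hochberg adjustment and 0.05 as the threshold. The fit was tested on simulated data. Fold changes on this scale are understated for low genes.

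Relative depth was read from the steps of FPKM values. Within a tolerance of 0.02 reads and up to 500 reads, whole reads were fitted for 66.5% of the 10161 genes above 0 in every library, against 2.74% with wrong steps. Among the 10 genes Slc1a5 and Slc7a11 had such a fit, and only these reads are printed. For voom the search went up to 5000 reads, where 84.2% of genes had a fit, but 27.6% did with wrong steps, so many larger read numbers may be chance fits.

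The 10 genes and the lists were chosen with earlier results of these data known. All 10 are named. Of each further list, the genes with the largest difference each way are named (2 each way for plasma membrane amino acid carriers), and of the partners Slc7a5 and Slc3a2 the 3 nearest genes, of which 1 is not reported here. Alternatives were other pseudocounts, filters, scalings and variance settings, the replicate block, voom on fitted reads, protein-coding genes alone and leaving out each library.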

Additional observations from a re-analysis of the deposited data

How the results depend on the processing

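Depth and 2 libraries a group limit precision. In none of the 14 alternatives did a carrier pass, and the smallest adjusted p was 0.725 (limma, Slc2a1 without PD replicate 1). Slc7a5, Slc38a2 and Slc16a1 kept their sign in all 14, within 0.11 to 0.35, -0.20 to -0.06 and -0.21 to -0.01. For Slc7a5 and Slc38a2, whose groups did not overlap, leaving out a library could not turn the sign. Nor could another pseudocount, filter or variance setting, or the block. Only the other scalings and voom could have done so. When 1 library was left out, the log2 difference ran from -0.25 to 0.62 for Slc1a5 (-0.23 without DMSO replicate 2), -0.25 to 0.27 for Slc2a1 (-0.0027 without DMSO replicate 1), -0.18 to 0.22 for Slc2a3 (-0.0033 without PD replicate 2), -0.17 to 0.22 for Slc38a1 (-0.14 without PD replicate 1), -0.19 to 0.42 for Slc3a2 (-0.10 without DMSO replicate 2) and -0.085 to 0.80 for Slc7a3. In the rescaled table Slc2a1 had -0.014 and Slc2a3 -0.0020. The median of the carriers ran from -0.14 without PD replicate 1 to 0.27 without PD replicate 2. The median of all genes tested, -0.02, became 0.04 after quantile normalization. In the rescaled table, where 11675 genes met the filter, it was -0.07.

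Over all genes, the counts of 3 higher and 22 lower in PD ran from 0 to 27 and from 0 to 20 when 1 library was left out (0 without DMSO replicate 1 or 2, where 344 and 416 had an unadjusted p under 0.05), and both were 0 in the rescaled table, with voom and among protein-coding genes alone, the last chosen after the data were seen (782, 412 and 609 genes at an unadjusted p under 0.05). The rescaled table, voom and the protein-coding genes alone tested 11675, 7360 and 8897 genes, against 9741 in the main fit. All of these left out genes of small RNAs, so the sets of genes differ as well. With the replicate block the counts were 2 and 17, and the block changed no call of a carrier. Deviations of libraries with the same number correlated at r = 0.0992 over 9741 genes and 0.203 over the 8897 protein-coding ones. The labels give no pairing beyond the number. Slc38a1 had no fit up to 5000 reads and was left out of voom, as was Slc7a11 by the FPKM filter. The causes of these shifts were not tested.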
